A study of Homo sapiens with 12 samples.

Results

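The genes of 9 enzymes that make, salvage or degrade deoxynucleotides were followed in TFK1, an established human cholangiocarcinoma (bile duct cancer) cell line: RRM1, RRM2, TYMS, DUT, DCTD, DTYMK, TK1, DCK and SAMHD1. They were picked by gene symbol, and all 9 were found among the 58735 genes of the deposited expression table. The 12 libraries were 3 labelled biological replicates each of untreated control cells, cells given radiation (6 Gy), cells given nab-paclitaxel (1.62 ng/ml, paclitaxel, which stabilises microtubules, carried on albumin particles), and cells given the combination of the same dose and the same concentration. Total RNA was taken 24 h after treatment, and all groups share the 1 wild-type line. The study asked how the drug makes these cells more sensitive to radiation.

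Deoxynucleotides are the building blocks of DNA, and a dividing cell makes most of them just before and during S phase. Ribonucleotide reductase, made of a large catalytic subunit (RRM1) and a small radical-bearing subunit (RRM2, or the p53-inducible RRM2B), reduces ribonucleotides to deoxyribonucleotides. For the thymidine branch, DUT splits dUTP and DCTD deaminates dCMP, each giving dUMP, which thymidylate synthase (TYMS) methylates to dTMP, and thymidylate kinase (DTYMK) phosphorylates on the way to dTTP. TK1 and DCK salvage thymidine and deoxycytidine, DCK being also the kinase that activates gemcitabine, and SAMHD1 hydrolyses finished deoxynucleoside triphosphates. Messenger RNA of RRM2, TK1 and TYMS is known to peak in S phase under the E2F and NF-Y families of transcription factors, which bind E2F sites and CCAAT boxes.

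Because several members moved together, the 250 bases before each RefSeq transcript start (GRCh38.p14, 15 windows, all 9 members matched) were searched for such letters on both strands. The letters CCAAT occurred in at least 1 window of 5 of the 9 members (RRM1, RRM2, DTYMK, TK1 and SAMHD1), against 32% of all 35116 RefSeq windows of the same length. An E2F-type motif (TTTCCCGC, TTTGGCGC, TTTCGCGC or TTTGCCGC) occurred in 2 of the 9 (TYMS and DUT), against 2.79% of all windows. A gene with several windows (4 for DUT, 2 for TK1) has more chances of a match. The counts of members are per gene and the background shares per window, so they are not like for like. No excess of either motif is read from them. No CCAAT match overlapped an E2F-type match, since no member held both. The 30 bases around each match, other than 1 RRM2 match far upstream of a second start, are printed 5′ to 3′ on the gene's strand, with the match in capitals, to show how the copies resemble each other.
RRM2, chr2:10122603-10122632, plus strand: gggcaaggcgcagCCAATgggaagggtcgg
RRM2, chr2:10122633-10122662, plus strand: aggcatggcacagCCAATgggaagggccgg
RRM2, chr2:10122660-10122689, plus strand: cggggcaccaaagCCAATgggaagggccgg
TK1, chr17:78187113-78187142, minus strand: cggccgggcgctgATTGGccccatggcggc
TK1, chr17:78187082-78187111, minus strand: gggccggctcgtgATTGGccagcacgccgt
DTYMK, chr2:241686891-241686920, minus strand: gccccggccccggCCAATcccttcgaattt
DTYMK, chr2:241686823-241686852, minus strand: ctgttgacgccggCCAATgggagctccgga
SAMHD1, chr20:36951735-36951764, minus strand: caggaggCCAATaggctgCCAATactcctt
RRM1, chr11:4094644-4094673, plus strand: ggcatgtccatatCCAATggggcccatggg
TYMS, chr18:657603-657632, plus strand: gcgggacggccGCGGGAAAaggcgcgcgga
DUT, chr15:48332151-48332180, plus strand: gctgGCGGGAAAtttcggtTTTGGCGCgct

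The 3 CCAAT copies of RRM2 begin 123, 93 and 66 bases before its start and are each followed by the same letters gggaaggg, and 2.93% of all windows hold 3 or more copies. In TK1 the matches lie on the opposite strand, as ATTGG, and begin 77 and 46 bases before the start. All 4 members that fell with radiation (RRM1, RRM2, DTYMK and TK1) hold CCAAT in a window, as does SAMHD1, whose level differed least between groups. The other 4 members that did not pass there (TYMS, DUT, DCTD and DCK) hold none in these windows, and no test of this split was made. The split depends on the threshold and the libraries used. Without control 2, nab-paclitaxel 1 and combination 2 TYMS and DUT also fell with radiation. The call of DTYMK was lost in 6 of 24 alternative settings. DUT holds a pair of E2F-type matches 42 and 27 bases before a start, which 0.122% of windows do. A match is a description of letters and not evidence of a bound factor.

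The whole 250-base RRM1 window (chr11:4094435-4094684, plus strand) is shown because it ends before the annotated gene begins and RRM1 was the member that differed in most comparisons. Its CCAAT, in capitals, begins 28 bases before the RefSeq start.
RRM1: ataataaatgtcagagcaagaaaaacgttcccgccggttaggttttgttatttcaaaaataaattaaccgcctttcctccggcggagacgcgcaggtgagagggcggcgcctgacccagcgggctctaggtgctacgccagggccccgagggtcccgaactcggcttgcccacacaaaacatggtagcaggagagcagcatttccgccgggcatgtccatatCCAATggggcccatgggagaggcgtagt

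Expression is given as FPKM (fragments per kilobase of gene, scaled for library depth). The length used for the 9 members is that of all their annotated exons together. An order of genes by FPKM therefore depends on the annotated length as well. The libraries hold 14840283 to 17992242 fragments each. Differences are log2 fold changes on log2(FPKM + 1) with their SE. A gene is said to have risen or fallen where limma, fitted over the 13609 genes whose mean reached 1 FPKM, gave a Benjamini-Hochberg adjusted p under 0.05. All 9 members passed that filter. In a principal component analysis control 2, nab-paclitaxel 1 and combination 2 stood apart, each the highest of its group on component 2 (22% of the variance), so the counts of members, RRM2B and the counts over gene lists that move by more than 1.5 times are also given without these 3 libraries. That leaves 2 libraries in each of these 3 groups. The libraries were picked from these same data, and without them more genes pass. Radiation against control then called 2945 of 13664 genes, where all 12 libraries called 807 of 13609. Adjusted p-values without the 3 libraries are therefore a description and not added support. Of 8 biliary epithelium markers 6 had a mean of at least 1 FPKM in every group, KRT19 among them, and their summed level ran from 719 to 905 FPKM in control and from 1350 to 1700 FPKM in the combination, where 4 of the 6 tested rose against control (KRT19 by 1.35 ± 0.12 on the log2 scale, KRT8 by 0.91 ± 0.16, KRT18 by 0.82 ± 0.14 and SOX9 by 0.61 ± 0.07) and CDH1 fell (-0.38 ± 0.07). KRT7, a usual marker of bile duct cells, had a mean of 0.533 FPKM. Of 5 leukocyte markers and 3 endothelial markers 0 did, and of 4 fibroblast markers COL1A1 did (6.85 ± 0.665 FPKM in control, 4.23 ± 0.475 in the combination, SD, n = 3), while CD14 (0.305 FPKM over the 12 libraries) and VWF (0.263 FPKM) were the most abundant of the other 2 lists. The part of other cells in the results was not tested.

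In mean level over the 12 libraries TK1 came far ahead of the others, at 49.2 FPKM, and its lowest library (32.9 FPKM) lay above the highest library of every other member. RRM1 (16.5 FPKM), DCTD (15.4) and RRM2 (12.3) followed, then DCK (10.4), DTYMK (8.66), SAMHD1 (6.40), DUT (5.62) and TYMS (4.33). Below TK1, neighbours in this order overlapped in their libraries, so their order is not fixed beyond the spread. It also rests on the annotated lengths, from 1861 bases for TK1 to 11261 for SAMHD1, which held 1060 to 1324 fragments per library. TYMS rests on the fewest fragments, 116 to 296 per library, and TK1 on 972 to 2312.

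**Figure D1:**
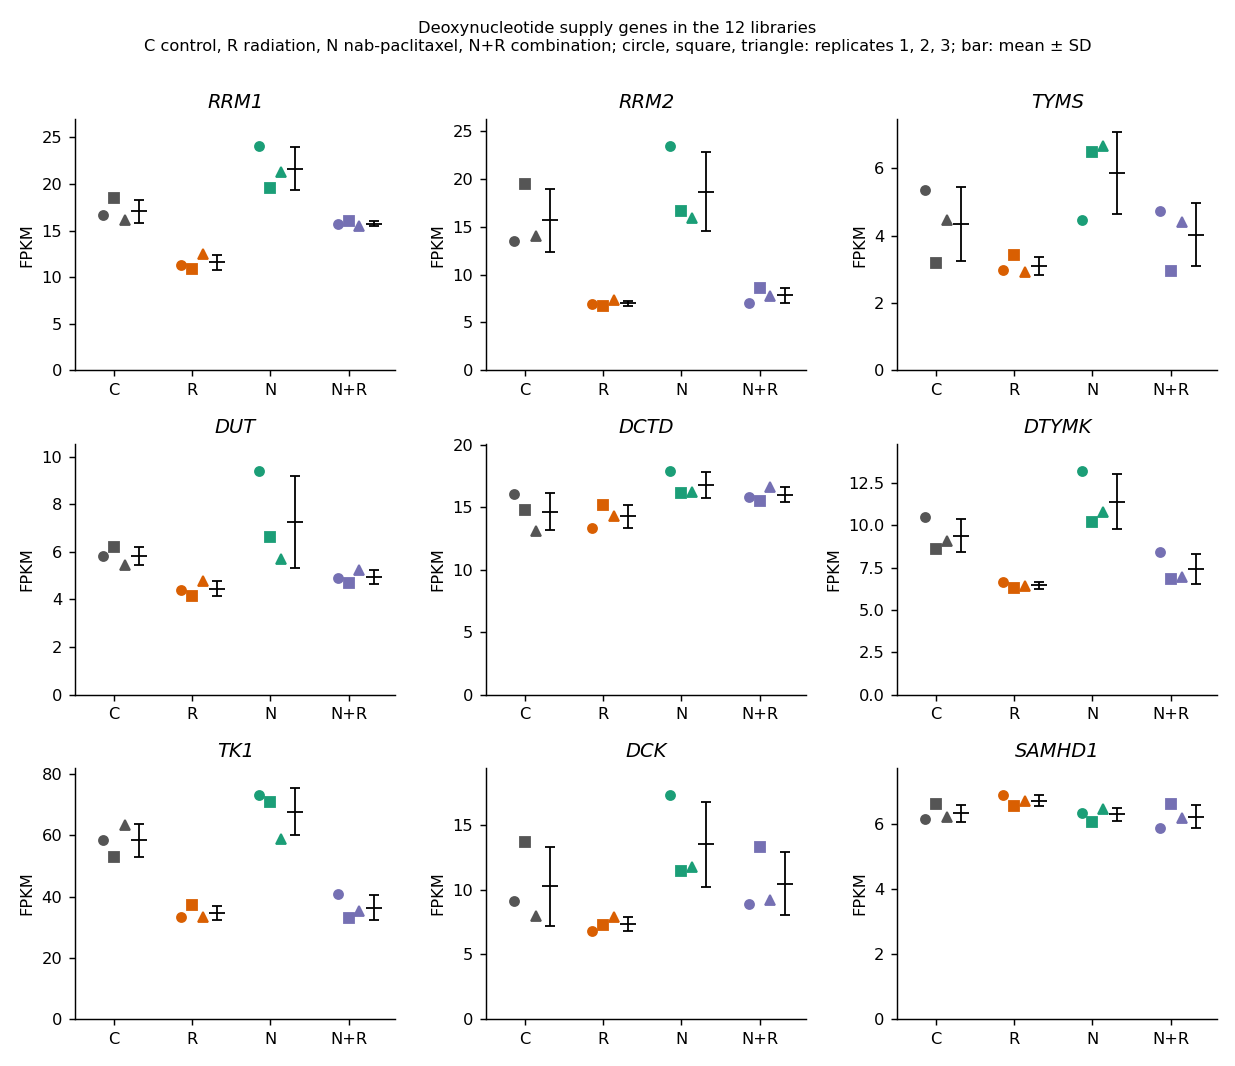
Expression of the 9 genes in FPKM (vertical axes, each from 0) in every library of the 4 groups (horizontal axis), with 1 symbol shape per replicate and the mean ± SD (n = 3) as a bar. RRM2 and TK1 are low in all 6 irradiated libraries, SAMHD1 stays between 5.90 and 6.90 FPKM throughout, and TYMS overlaps between most groups.

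Radiation lowered the mRNA of the reductase subunits RRM1 and RRM2, of the thymidine kinase and of the thymidylate kinase. RRM2, TK1, RRM1 and DTYMK fell, 0 members rose and 5 did not pass the test. In the background 3.45% of all tested genes fell and 2.48% rose (5.93% in either direction). In bulk RNA, fewer cells in S phase and less of an mRNA per cell cannot be told apart. The median member differed by -0.40 on the log2 scale and the median tested gene by -0.02. In 6 of the 9 members all 3 irradiated libraries lay below all 3 controls, as did 16% of all genes. Without control 2, nab-paclitaxel 1 and combination 2, 6 members fell (background 12.6% lower), TYMS (-0.53, adjusted p = 0.00496) and DUT (-0.28, adjusted p = 0.036) being added.

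Radiation of drug-treated cells, read as the combination against nab-paclitaxel alone, shares no library with that comparison. RRM2, TK1, DTYMK and RRM1 fell, 0 members rose and 5 did not pass. Of all tested genes 2.7% fell and 1.21% rose (3.92% in either direction). The median member differed by -0.45 and the median tested gene by -0.02. The groups did not overlap in 5 members, all lower in the combination, against 12.3% of genes lower without overlap. Without the 3 libraries that stood apart 6 fell (5.75% of genes lower), TYMS (-0.44, adjusted p = 0.0237) and DCK (-0.33, adjusted p = 0.0403) being added.

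Nab-paclitaxel alone gave few calls among the members. Only RRM1 rose against control and 0 fell, while 5.41% of all genes rose and 3.41% fell (8.82% in either direction), so 1 of 9 members gives little to set against the background. In the other 8 members the test was not passed, though 7 of them had a positive difference. Some intervals were wide, as for TYMS (0.37 ± 0.18, 95% interval -0.04 to 0.77) and DCK (0.38 ± 0.21, -0.07 to 0.83), so sizeable rises were not excluded. The median member differed by 0.25 and the median tested gene by 0.04. The 2 members whose groups did not overlap were RRM1 and DCTD, against 15.5% of genes higher without overlap (26.1% in either direction). Without the 3 libraries RRM1 (0.30, adjusted p = 0.03), TYMS (0.36, adjusted p = 0.0409) and DCK (0.40, adjusted p = 0.0171) rose, with 8.71% of genes higher. A limma fit of control and nab-paclitaxel alone called 8 of 13508 genes, against 1200 of 13609 with all groups. Calls in this comparison therefore depend on which groups are fitted together.

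In the combination against control RRM2 and TK1 fell and the other 7 members did not pass, while 10.6% of all genes fell and 22.9% changed in either direction. The median member differed by -0.11 and the median tested gene by 0.00. In 5 members all combination libraries lay below all controls, against 17.8% of genes (37.3% without overlap in either direction). Without the 3 libraries DTYMK was added to the members that fell (-0.31, adjusted p = 0.0311, with 17.1% of genes lower). The comparisons with control share the same 3 control libraries, so their values are not independent of each other.

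Adding the drug to radiation, the combination against radiation alone, raised RRM1 and lowered 0 members, with 4.81% of all genes higher and 2.95% lower (7.75% in either direction). The median member differed by 0.16 and the median tested gene by 0.03. The groups did not overlap in 4 members (RRM1, DCTD, DTYMK and DCK), all higher in the combination, and 23.9% of genes were higher without overlap (40.5% in either direction). Without the 3 libraries RRM1 (0.40, adjusted p = 0.00401), TYMS (0.44, adjusted p = 0.00749) and DCK (0.27, adjusted p = 0.0247) rose, with 18.7% of genes higher.

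The widest gap was between the single treatments. Radiation alone against nab-paclitaxel alone gave 7 members lower (RRM1, RRM2, TYMS, DUT, DTYMK, TK1 and DCK) and 0 higher, with 10.6% of all genes lower and 5.58% higher (16.1% in either direction). The median member differed by -0.73 and the median tested gene by -0.05. All 3 irradiated libraries lay below all 3 drug libraries in 8 members, against 26.7% of genes, and above them in SAMHD1 alone, against 15.8%. Without the 3 libraries 7 members were again lower, with 19.7% of genes lower.

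**Figure D2:**
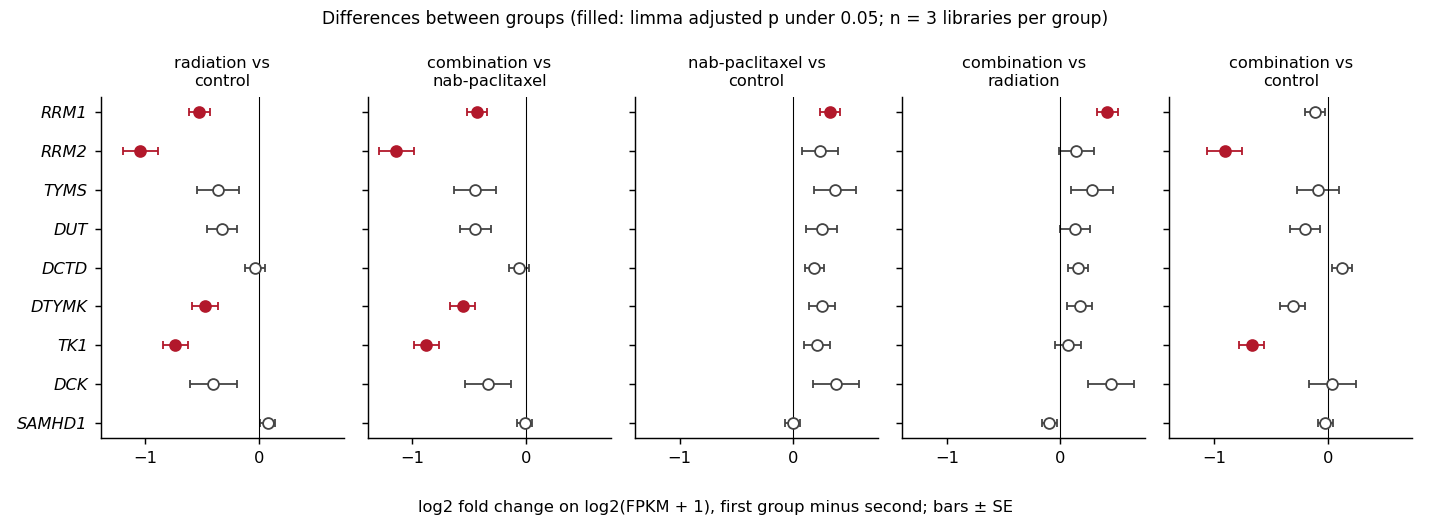
Log2 fold changes on log2(FPKM + 1) with SE (horizontal axis) of the 9 genes (rows) in 5 comparisons (panels), filled where the limma adjusted p is under 0.05 (n = 3 libraries per group). RRM2 and TK1 lie furthest to the left in each of the 3 comparisons of irradiated with unirradiated cells, RRM1 lies to the right in both comparisons that add the drug, and SAMHD1 stays within 0.10 of 0.

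Whether the radiation effect differed with and without the drug was tested by the interaction of the treatments. It passed for 0 of the 9 members and for 0 of 13609 genes by limma. At an unadjusted p under 0.05 there were 0 members and 443 genes, and voom on fragment numbers called 0 members too. The interval of the interaction was wide: for RRM2 it was -0.10 ± 0.22 (adjusted p = 1, 95% interval -0.58 to 0.39) and for TK1 -0.14 ± 0.16 (-0.49 to 0.20), so differences of that size between the radiation effects were not excluded.

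RRM2 (ENSG00000171848, hg38 chr2:10120698-10131419, plus strand) encodes the small subunit of ribonucleotide reductase, whose supply rises in S phase. It measured 13.5, 19.5 and 14.03 FPKM (control), 6.95, 6.72 and 7.29 (radiation alone), 23.4, 16.6 and 16.0 (drug alone) and 7.08, 8.58 and 7.80 (both treatments), for replicates 1, 2 and 3 of each group. The highest of the 6 irradiated libraries lay below the lowest of the 6 unirradiated ones, and control 2 and nab-paclitaxel 1 were the highest of their groups. With radiation RRM2 fell by 55.4% (-1.04 ± 0.16, adjusted p = 0.00366). In the combination it fell by 50.1% against control (-0.91 ± 0.16, adjusted p = 0.00218) and fell by 58.1% against the drug alone (-1.14 ± 0.16, adjusted p = 0.00294). These 3 calls held under all 24 alternatives tried for each. Nab-paclitaxel alone gave 0.24 ± 0.16 (adjusted p = 0.36), and the combination against radiation 0.14 ± 0.16 (adjusted p = 0.615). Of its exon bases 20.2% are shared with AC007240.1 on the same strand, which had a mean of 0.0639 FPKM, and its 3 named pseudogenes held 0 to 5 fragments per library together.

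RRM1 (ENSG00000167325, chr11:4094707-4138876, plus strand) encodes the large subunit, which holds the active site and is less tied to S phase than RRM2. Its levels were 16.6, 18.5 and 16.1 FPKM (control), 11.3, 10.9 and 12.5 (radiation alone), 24.1, 19.6 and 21.3 (drug alone) and 15.7, 16.0 and 15.5 (both treatments). The groups were ordered radiation, combination, control and nab-paclitaxel, with no overlap between any of them. Radiation gave -0.52 ± 0.09 (adjusted p = 0.00681) and the combination -0.11 ± 0.09 against control (adjusted p = 0.407). Added to radiation, the drug gave 0.41 ± 0.09 (adjusted p = 0.021).

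The fall of RRM1 with radiation held under all 24 alternatives, and its other calls were less firm. The rise with the drug alone (0.32 ± 0.09, adjusted p = 0.047) was lost in 17 of 24 alternatives, with adjusted p between 0.03 and 0.235 over all of them. It was lost on leaving out control 1 (adjusted p = 0.104), control 3 (0.133), nab-paclitaxel 1 (0.111), nab-paclitaxel 3 (0.0762), radiation 1 (0.0754), radiation 2 (0.0694), radiation 3 (0.064), combination 1 (0.0674), combination 2 (0.057) or combination 3 (0.0704). The rise on adding the drug to radiation was lost in 6 alternatives, on leaving out radiation 1 (adjusted p = 0.0926), radiation 2 (0.093), combination 1 (0.0685), combination 2 (0.0529) or combination 3 (0.0774), or with the replicate number as a block. The fall of RRM1 in the combination against the drug alone (-0.43 ± 0.09, adjusted p = 0.0232) was likewise lost in 6, among them leaving out nab-paclitaxel 3 (0.0583), combination 1 (0.0747), combination 2 (0.0596) or combination 3 (0.0964).

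The ratio of RRM2 to RRM1, which does not depend on how libraries are scaled, set the irradiated groups apart. It was 0.813, 1.05 and 0.87 (control), 0.614, 0.617 and 0.583 (radiation alone), 0.974, 0.848 and 0.749 (drug alone) and 0.451, 0.537 and 0.504 (both treatments). The combination lay lowest, below radiation alone without overlap (0.497 ± 0.0436 against 0.605 ± 0.0187, SD, n = 3), and control and nab-paclitaxel overlapped. In an exact two-sided permutation test each of the 5 comparisons without overlap gave p = 0.1, the smallest that 3 libraries against 3 can give, and nab-paclitaxel against control gave p = 0.6; 18 such tests were made over 3 ratios, and all had an adjusted p of at least 0.36. The libraries that stood apart held the highest ratio of their group in each case, and the same order of groups is seen without them.

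RRM2B, the alternative small subunit and a p53 target, had a higher FPKM than RRM2 in all 12 libraries. It measured 28.5, 40.3 and 27.1 FPKM (control), 37.7, 37.5 and 41.2 (radiation alone), 39.3, 29.4 and 32.6 (drug alone) and 43.8, 55.1 and 37.2 (both treatments). The highest value in control and in the combination was that of replicate 2, and the groups overlapped. With all libraries RRM2B did not pass the test in any comparison, and the combination against control came nearest (0.50 ± 0.17, adjusted p = 0.056). That call depends on the setting: RRM2B passed there in 8 of 24 alternatives, among them leaving out control 2 (adjusted p = 0.0126), nab-paclitaxel 1 (0.0429) or combination 3 (0.0412). Without control 2, nab-paclitaxel 1 and combination 2 RRM2B was higher in the combination than in control (0.52, adjusted p = 0.00279) and than in the drug alone (0.37, adjusted p = 0.0356). Radiation alone was then higher than control (0.47, adjusted p = 0.00648) and than the drug alone (0.32, adjusted p = 0.0205).

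**Figure D3:**
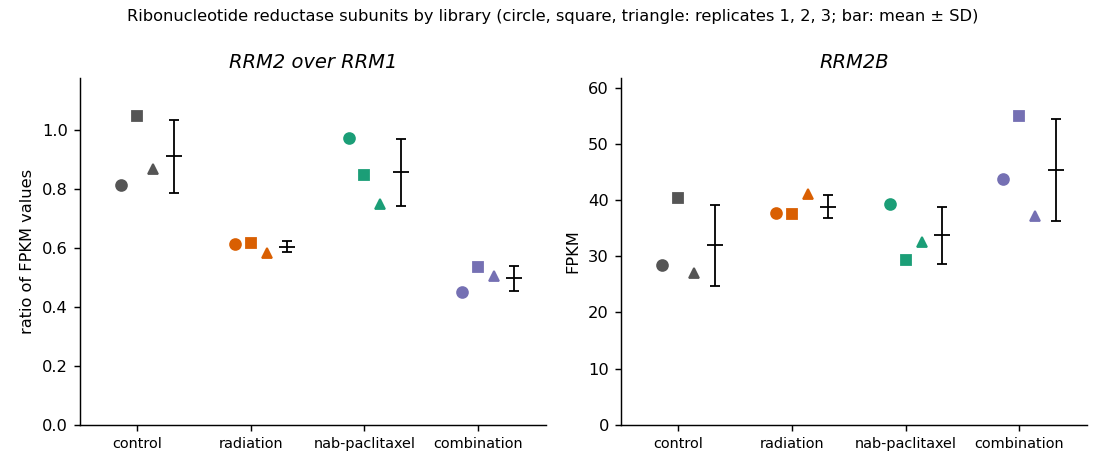
Ratio of RRM2 to RRM1 (left) and level of RRM2B in FPKM (right) in each library of the 4 groups, with 1 symbol shape per replicate and the mean ± SD (n = 3) as a bar. The ratio is at most 0.617 in irradiated libraries and at least 0.749 in the others, whereas RRM2B overlaps between groups and is highest in combination 2, at 55.1 FPKM.

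In the thymidylate branch DTYMK (ENSG00000168393, chr2:241675742-241686991, minus strand), the kinase that turns dTMP into dTDP, was the member that fell. It measured 10.5, 8.58 and 9.10 FPKM (control), 6.65, 6.27 and 6.42 (radiation alone), 13.2, 10.2 and 10.8 (drug alone) and 8.42, 6.81 and 6.97 (both treatments). All irradiated libraries lay below all unirradiated ones, the nearest being combination 1 (8.42) and control 2 (8.58). DTYMK gave -0.48 ± 0.11 with radiation (adjusted p = 0.0281) and -0.56 ± 0.11 in the combination against the drug alone (adjusted p = 0.0185). In the combination against control it gave -0.31 ± 0.11 and missed the threshold (adjusted p = 0.0671), which it passed with the replicate number as a block (adjusted p = 0.0258).

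The call of DTYMK with radiation was lost without the filter on low genes (adjusted p = 0.0694) and on leaving out control 1 (0.102), control 3 (0.0616), radiation 1 (0.0813), radiation 2 (0.111) or radiation 3 (0.0984). Its call against the drug alone was lost in 4 alternatives, with adjusted p up to 0.105, among them leaving out combination 2 (0.0712) or combination 3 (0.0888). Leaving out combination 1 (0.0456) or nab-paclitaxel 1 (0.03) instead brought DTYMK past the threshold in the combination against control.

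TYMS (ENSG00000176890, chr18:657604-673578, plus strand), the enzyme inhibited by fluorouracil and antifolates, did not pass the test in any comparison with control. Its levels were 5.36, 3.19 and 4.47 FPKM (control), 2.98, 3.42 and 2.91 (radiation alone), 4.45, 6.47 and 6.66 (drug alone) and 4.72, 2.96 and 4.41 (both treatments). Control 2, nab-paclitaxel 1 and combination 2 were each the lowest of their group, and control overlapped with each treated group. Radiation against control gave -0.36 ± 0.18 (adjusted p = 0.317, 95% interval -0.77 to 0.04), and the difference between radiation and nab-paclitaxel passed (-0.73 ± 0.18, adjusted p = 0.0224). That call was lost in 7 of 23 alternatives, on leaving out radiation 1 (0.0761), radiation 2 (0.0507), radiation 3 (0.0755), nab-paclitaxel 2 (0.0659) or nab-paclitaxel 3 (0.0649), without the filter, or with TPM scaling.

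The TYMS locus is shared with other genes, and no source used here says if reads were counted by strand. Of the exon bases of TYMS 39.1% also belong to ENOSF1 and 7.4% to TYMSOS, each on the opposite strand, so their reads may be mixed. ENOSF1, an enzyme gene whose transcripts run against TYMS, had a mean of 4.31 FPKM in control and fell in all 3 treated groups (-0.56 ± 0.08 with radiation, adjusted p = 0.00264, and -0.70 ± 0.08 with the combination, adjusted p = 0.000204). Its fall with nab-paclitaxel (-0.42 ± 0.08, adjusted p = 0.012) is opposite in sign to the difference of TYMS there (0.37 ± 0.18, adjusted p = 0.234). How much of either gene's value comes from the other was not tested.

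DUT (ENSG00000128951, chr15:48331011-48343373, plus strand) keeps uracil out of DNA by removing dUTP. It measured 5.83, 6.22 and 5.44 FPKM (control), 4.41, 4.15 and 4.79 (radiation alone), 9.42, 6.61 and 5.72 (drug alone) and 4.89, 4.69 and 5.26 (both treatments). Nab-paclitaxel 1 stood well above the rest. The irradiated libraries lay below the unirradiated ones without overlap, yet the differences did not pass (-0.33 ± 0.14 with radiation, adjusted p = 0.207, and -0.45 ± 0.14 in the combination against the drug, adjusted p = 0.1). The call of DUT in radiation against nab-paclitaxel (-0.57 ± 0.14, adjusted p = 0.0163) was lost on leaving out radiation 1 (0.0593) or radiation 2 (0.0629) and in a fit of those groups alone (0.0556). Leaving out nab-paclitaxel 1 brought DUT past the threshold in radiation against control (-0.33, adjusted p = 0.0323), and leaving out nab-paclitaxel 3 did so in the combination against the drug (-0.58, adjusted p = 0.0444). Its 8 named pseudogenes held 4 to 18 fragments per library together, and how reads were shared among such copies is not stated.

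DCTD (ENSG00000129187, chr4:182890060-182917936, minus strand), the dCMP deaminase that feeds dUMP to TYMS, differed little. Its libraries ran from 13.1 to 16.1 FPKM (control), 13.4 to 15.1 (radiation alone), 16.1 to 17.9 (drug alone) and 15.5 to 16.6 (both treatments). Radiation against control gave -0.03 ± 0.09 (adjusted p = 0.89, 95% interval -0.23 to 0.16). Nab-paclitaxel gave 0.19 ± 0.09 (adjusted p = 0.197), with all 3 drug libraries above all 3 controls. DCTD did not pass in any comparison or any alternative.

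Of the salvage kinases TK1 (ENSG00000167900, chr17:78174075-78187233, minus strand), the cytosolic thymidine kinase of dividing cells, fell. It measured 58.6, 52.9 and 63.5 FPKM (control), 33.4, 37.1 and 33.3 (radiation alone), 73.2, 70.9 and 58.8 (drug alone) and 40.9, 32.9 and 35.3 (both treatments). No irradiated library exceeded 40.9 FPKM and no unirradiated one was under 52.9. With radiation TK1 fell by 40.7% (-0.73 ± 0.11, adjusted p = 0.00398). In the combination it fell by 37.6% against control (-0.67 ± 0.11, adjusted p = 0.0019) and fell by 46.3% against the drug alone (-0.88 ± 0.11, adjusted p = 0.00214). Like those of RRM2, these 3 calls held under all 24 alternatives. The drug gave 0.21 ± 0.11 alone (adjusted p = 0.261) and 0.07 ± 0.11 on top of radiation (adjusted p = 0.757).

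DCK (ENSG00000156136, chr4:70992538-71030914, plus strand), the deoxycytidine kinase, varied widely within groups. Its levels were 9.12, 13.7 and 7.95 FPKM (control), 6.83, 7.28 and 7.88 (radiation alone), 17.3, 11.5 and 11.7 (drug alone) and 8.92, 13.3 and 9.20 (both treatments). Control 2, nab-paclitaxel 1 and combination 2 were each the highest of their group. Against control DCK gave -0.40 ± 0.21 with radiation (adjusted p = 0.316), 0.38 ± 0.21 with the drug (adjusted p = 0.269) and 0.04 ± 0.21 with the combination (adjusted p = 0.91). Radiation against nab-paclitaxel passed (-0.78 ± 0.21, adjusted p = 0.026), and lost the call on leaving out radiation 1 (0.0903), radiation 2 (0.074), radiation 3 (0.0604) or nab-paclitaxel 1 (0.0857), or without the filter (0.0794). MOB1B shares 6.2% of the DCK exon bases on the same strand. Like DCK, MOB1B was highest of its group in control 2 (16.7 FPKM, against 9.56 and 10.05 in control 1 and 3). The same held for nab-paclitaxel 1 (11.4, against 9.11 and 11.2) and combination 2 (13.7, against 11.7 and 9.58). Over the 12 libraries MOB1B was highest in control 2 and DCK in nab-paclitaxel 1. How much of the DCK value comes from MOB1B was not tested. MOB1B passed in no comparison.

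SAMHD1 (ENSG00000101347, chr20:36889773-36951901, minus strand), the triphosphohydrolase that drains the pool, was the most even member. Its libraries ran from 6.15 to 6.62 FPKM (control), 6.57 to 6.90 (radiation alone), 6.08 to 6.47 (drug alone) and 5.90 to 6.62 (both treatments). The highest library was 1.17 times the lowest, against 3.49 times for RRM2. Radiation against control gave 0.08 ± 0.07 (adjusted p = 0.613, 95% interval -0.07 to 0.23) and the combination -0.02 ± 0.07 (adjusted p = 0.864, -0.17 to 0.13). These intervals leave out a change of the size seen in RRM2 or TK1, and SAMHD1 passed in no comparison or alternative.

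The libraries that stood apart did so in a patterned way among the members. RRM1, RRM2 and DCK were highest of their group in all 3 of control 2, nab-paclitaxel 1 and combination 2, and TYMS was lowest in all 3. Nab-paclitaxel 1 held the highest value of the 12 libraries for 7 members (RRM1, RRM2, DUT, DCTD, DTYMK, TK1 and DCK). TYMS deviated by about the same amount in each, -0.33, -0.32 and -0.33 on the log2 scale for control 2, nab-paclitaxel 1 and combination 2, and DCK by 0.42, 0.36 and 0.34. The labels name no batch for these libraries.

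**Figure D4:**
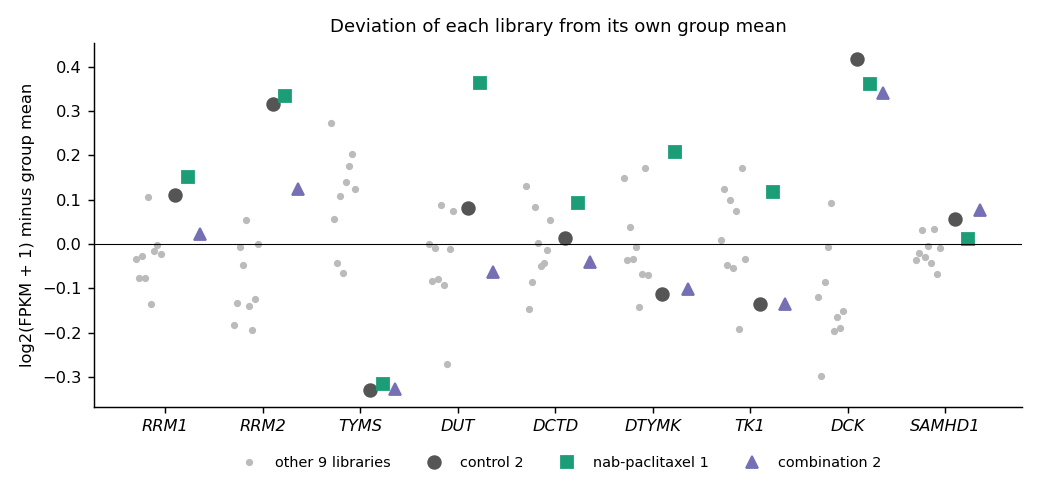
Deviation of each library from its own group mean on log2(FPKM + 1) (vertical axis) for the 9 genes (horizontal axis), with control 2, nab-paclitaxel 1 and combination 2 as large symbols and the other 9 libraries as small grey points. The large symbols lie together below 0 for TYMS and together above 0 for RRM1, RRM2 and DCK, by little above 0 for SAMHD1, and on both sides of 0 for DUT, DCTD, DTYMK and TK1.

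Likeness between genes was measured as the root mean square difference of log2(FPKM + 1) over the 12 libraries, each gene centred on its own mean, as a description. Among the members DUT and DTYMK, RRM1 and DTYMK, and DCTD and SAMHD1 were closest (0.15 each), and RRM2 and SAMHD1 (0.59) furthest apart. RRM1 and RRM2, partners in one enzyme, differed by 0.34. Over all tested genes TK1 was nearest to MCM7 (0.09), FEN1 (0.09) and MCM3 (0.10), which encode helicase subunits and a flap nuclease of DNA replication. RRM2 was nearest to the kinase gene MELK (0.16), the chemokine gene CXCL1 (0.17) and the growth factor gene EREG (0.17). TYMS was nearest to ALYREF (0.10), LMNB2 (0.11) and PLCB3 (0.11), and SAMHD1 to ZNF776 (0.03) and SPRY1 (0.04). Genes of little variation are close to one another whatever their pattern.

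Among 63 other genes of nucleotide metabolism, 61 of which were tested, changes went both ways. With radiation 3 rose and 7 fell (median -0.13, all genes -0.02), where 2.48% of all genes rose and 3.45% fell. With nab-paclitaxel 8 rose and 1 fell (0.18, all genes 0.04), against 5.41% and 3.41% of all genes. With the combination 9 rose and 4 fell against control (0.12, all genes 0.00), shares near those of all genes, 12.2% and 10.6%. The counts of single lists that follow are to be read against these same shares. Radiation against nab-paclitaxel gave 0 higher and 20 lower (-0.29, all genes -0.05), where 5.58% of all genes were higher and 10.6% lower. Without the 3 libraries the counts were 5 and 21 for radiation, 12 and 0 for nab-paclitaxel, and 16 and 8 for the combination, so they depend on those libraries. The shares of all genes grew as well. Then 8.94% rose and 12.6% fell with radiation, 8.71% and 4.71% with nab-paclitaxel, and 19.8% and 17.1% with the combination. Counts of single lists without the 3 libraries are to be read against these larger shares.

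In the list of RRM2B, mitochondrial salvage and folate cycle genes 1 of 6 rose and 1 fell with radiation, 0 changed with nab-paclitaxel, and 1 rose and 2 fell with the combination. SHMT2, the mitochondrial serine hydroxymethyltransferase, fell in the combination (-0.49 ± 0.16, adjusted p = 0.0417), a call lost in 13 of 24 alternatives. TK2, the mitochondrial thymidine kinase, went the other way from TK1: 2.48 ± 0.136 FPKM (control), 3.45 ± 0.325 (radiation alone), 2.83 ± 0.168 (drug alone) and 3.97 ± 0.211 (both treatments; SD, n = 3). TK2 rose with the combination (0.51 ± 0.08, adjusted p = 0.00152) under all 23 alternatives, and with radiation (0.35 ± 0.08, adjusted p = 0.0289), a call lost in 11 of 23.

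Several enzymes that break nucleosides down rose in the combination. Of 10 tested genes of nucleoside breakdown 4 rose and 0 fell with the combination (median 0.28, all genes 0.00). The named ones are ADA, UPP1 and PNP. ADA, adenosine deaminase, went from 5.11 ± 0.567 FPKM in control to 7.30 ± 0.135 after radiation, 8.22 ± 0.927 after nab-paclitaxel and 11.1 ± 0.769 after both (0.98 ± 0.10, adjusted p = 9.71e-05). UPP1, uridine phosphorylase, gave 0.68 ± 0.10 (adjusted p = 0.00074) and PNP, purine nucleoside phosphorylase, 0.49 ± 0.08 (adjusted p = 0.00156), all in the combination against control and in all 24 alternatives. With radiation 2 genes of this list (ADA and UPP1) rose and 0 fell, the call of UPP1 being lost in 14 of 24 alternatives, and without the 3 libraries 2 rose and 1 fell. With nab-paclitaxel 3 rose and 0 fell, and PNP was lower in radiation than in nab-paclitaxel alone. With nab-paclitaxel alone ADA (0.59 ± 0.10, adjusted p = 0.00655), UPP1 (0.58 ± 0.10, adjusted p = 0.00743) and PNP (0.50 ± 0.08, adjusted p = 0.00626) also rose. In the fit of control and nab-paclitaxel alone ADA (adjusted p = 0.105) and PNP (0.103) lost these calls.

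The nucleoside mono- and diphosphate kinases, which carry nucleotides to the triphosphate, changed in both directions. Of 11 tested genes 0 rose and 2 fell with radiation, 2 rose and 1 fell with nab-paclitaxel, and 2 rose and 2 fell with the combination. With the 3 libraries left out 4 fell with radiation and 3 rose with the combination. The guanylate kinase GUK1 rose (0.44 ± 0.09, adjusted p = 0.00528), and NME2 (-0.53 ± 0.10, adjusted p = 0.00343) fell. NME2 adjoins its close copy NME1, so its value is uncertain. Of the 3 reductase electron donors 0 rose and 1 fell with radiation, the number that fell being 0 to 1 over the alternatives. With nab-paclitaxel 0 of them changed, and with the combination 1 rose and 0 fell. GLRX, the glutaredoxin that passes electrons to the reductase, rose (0.45 ± 0.13, adjusted p = 0.0256), and so did UMPS of pyrimidine synthesis (0.30 ± 0.08, adjusted p = 0.02), calls lost in 4 of 24 alternatives each, GLRX on leaving out control 3, combination 2 or combination 3 and UMPS on leaving out control 1, control 3, combination 2 or combination 3.

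In the remaining comparisons with control, the purine synthesis list (14 genes) had 2 genes lower with radiation, the pool-cleaning list (4) 1 lower with radiation and 1 higher with nab-paclitaxel, and the uracil excision (4) and carrier (4) lists 1 higher each with nab-paclitaxel. When control 2, nab-paclitaxel 1 and combination 2 were left out 6 purine synthesis genes fell with radiation, 3 rose with nab-paclitaxel and 3 with the combination, and 2 carriers fell with radiation and 2 with the combination. In the lists with no gene past the threshold in the combination against control, the most abundant gene of each is named. The pool-cleaning pyrophosphatase DCTPP1 (0.24 ± 0.09, adjusted p = 0.0886), the uracil glycosylase UNG (0.17 ± 0.10, adjusted p = 0.242), the mitochondrial carrier SLC25A36 (-0.52 ± 0.18, adjusted p = 0.0615) and IMPDH2 of guanine nucleotide synthesis (-0.05 ± 0.10, adjusted p = 0.767) did not pass there. SLC25A36 passed in 9 of 24 alternatives, among them leaving out control 1 (adjusted p = 0.0499), nab-paclitaxel 1 (0.0448), combination 2 (0.0392) or the 3 libraries together (-0.44, adjusted p = 0.00525). Nab-paclitaxel alone raised DCTPP1 (0.50 ± 0.09, adjusted p = 0.012), a call lost in 1 of 24 alternatives, and UNG (0.41 ± 0.10, adjusted p = 0.033), a call lost in 12 of 24.

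Many genes of DNA replication and mitosis fell where RRM2 and TK1 fell. Of 35 tested replication genes 22 fell and 0 rose with radiation (median -0.50), 19 fell and 3 rose with the combination (-0.36), and 0 fell and 9 rose with nab-paclitaxel (0.20). Of 17 mitotic genes 15 fell with radiation (-0.76), 8 fell with the combination (-0.52), and 9 rose and 2 fell with nab-paclitaxel (0.44). Over the alternatives the replication genes that fell with radiation numbered 13 to 25 and those that rose with nab-paclitaxel 0 to 10. For the mitotic genes these ranges were 11 to 16 and 0 to 9. In the combination 6 replication genes rose and 19 fell once the 3 libraries were left out. The leading replication genes in the combination were MCM3 (-0.83 ± 0.08, adjusted p = 7.66e-05), CDT1, which licenses origins (-1.17 ± 0.11, adjusted p = 7.9e-05), and POLA1, the primase-bound polymerase (-0.56 ± 0.07, adjusted p = 0.000422). The leading mitotic genes were CENPF (-1.04 ± 0.11, adjusted p = 0.000145), MKI67 (-0.999 ± 0.18, adjusted p = 0.00256) and the motor gene KIF11 (-0.70 ± 0.13, adjusted p = 0.00271). Adding the drug to radiation raised 7 genes of each list and lowered 0, where 4.81% of all genes rose and 2.95% fell. Over the alternatives the genes raised there numbered 0 to 15 in replication and 4 to 10 in mitosis. Against the drug alone the combination had 24 replication and 14 mitotic genes lower and 0 higher, where 2.7% of all genes were lower and 1.21% higher. Those lower ranged from 8 to 26 and from 9 to 16 over the alternatives.

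Among 19 regulators of S-phase transcription 6 fell and 1 rose with radiation (median -0.42), 0 fell and 1 rose with nab-paclitaxel (-0.04), and 9 fell and 1 rose with the combination (-0.34). Leaving out the 3 libraries, 13 fell with radiation (3 to 13 over the alternatives) and 12 with the combination (4 to 12). E2F1, the transcription factor, went from 13.1 ± 0.850 FPKM in control to 7.53 ± 0.687 after radiation, 12.2 ± 1.47 after nab-paclitaxel and 5.04 ± 0.562 after both (-1.22 ± 0.11, adjusted p = 5.25e-05). FOXM1, a factor for mitotic genes, fell by 0.98 on the log2 scale (SE 0.13, adjusted p = 0.00052). CDKN1A, the p21 inhibitor, rose with the combination (1.53 ± 0.08, adjusted p = 9.31e-07). It was also the 1 regulator that rose with radiation and with nab-paclitaxel alone. Its level was 117 ± 7.82 FPKM in control and 200 ± 4.44 after radiation. After nab-paclitaxel it was 196 ± 9.80 and after both 338 ± 14.2. The call with nab-paclitaxel was lost only in the fit of control and nab-paclitaxel alone (adjusted p = 0.0669). E2F1 was lower in the combination than in radiation alone (-0.50 ± 0.11, adjusted p = 0.0191), whereas RRM1 was higher there. That call of E2F1 was lost on leaving out radiation 1, radiation 2 or combination 3.

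**Figure D5:**
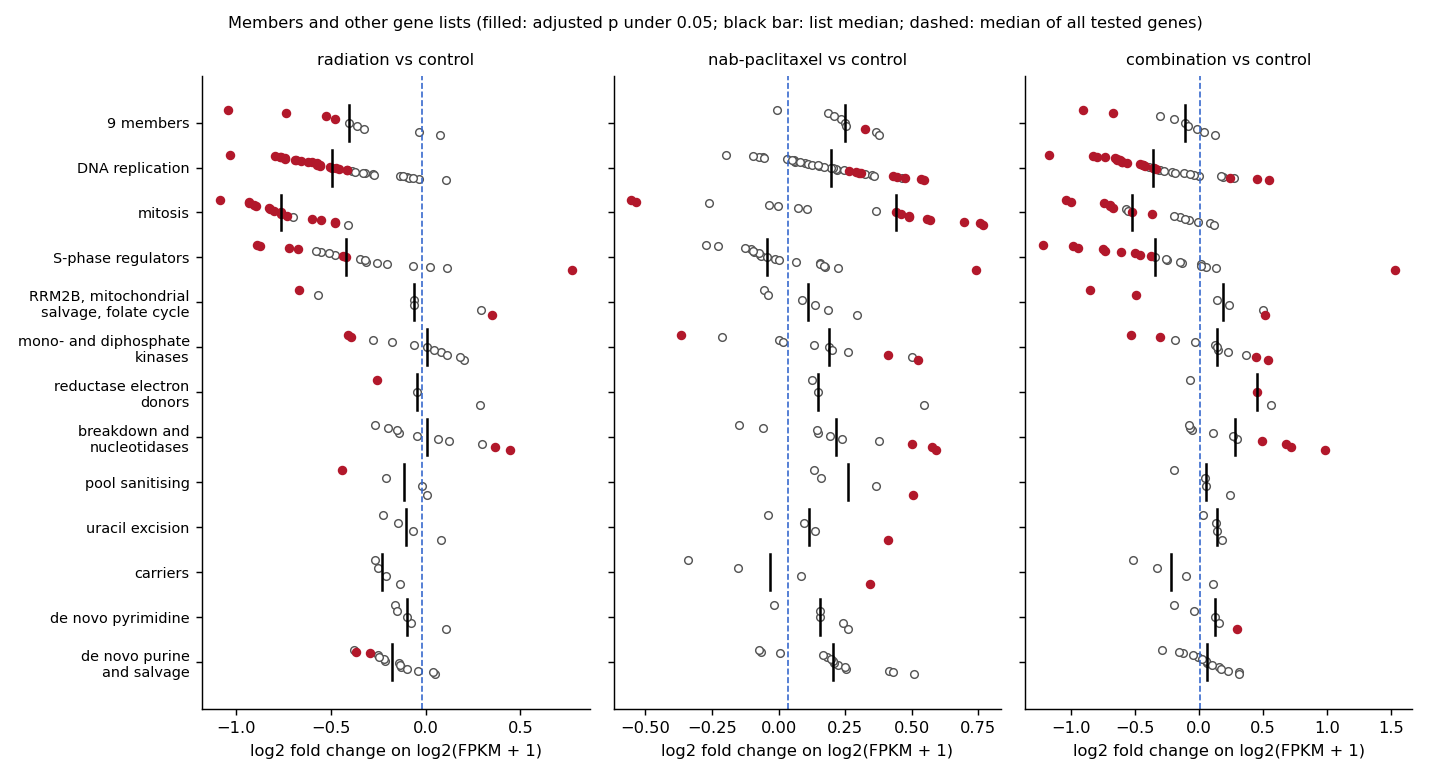
Log2 fold changes on log2(FPKM + 1) (horizontal axis) of the 9 members and of the tested genes of 12 other lists (rows) in the 3 comparisons with control (panels, each with its own range), 1 point per gene, filled where the adjusted p is under 0.05, with list medians as black bars and the median of all 13609 tested genes as a dashed line. Replication, mitosis and the members lie left of the dashed line with radiation, medians -0.50, -0.76 and -0.40.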

How the data were processed

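Messenger RNA libraries of TFK1 cells were made with a SMARTer kit, per the labels' protocols. The authors deposited 1 table of FPKM values with gene lengths. Per the submitters' processing notes the build was hg38. Which aligner, counter and strand setting were used is not given in the sources used here. All 9 identifiers, positions and lengths match GENCODE 29. FPKM times length gave whole fragments for 100% of genes in every library (within 0.05).

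Groups came from the labels. Limma 3.58.1 in R 4.3.3 was fitted with a mean-variance trend on log2(FPKM + 1) over 12 libraries and 13609 genes whose mean reached 1 FPKM (8 residual and 3.39 prior degrees of freedom), two-sided, with Benjamini-Hochberg adjustment within each of 7 contrasts and no replicate block. The script was tested on simulated data. The labels do not say whether replicates were separate cultures in time, so p-values measure the spread between these libraries. Same-numbered libraries deviated together (r over 0.1 in all 3 pairs) in 1 of 6 pairs of groups, namely the combination with its control (r = 0.233, 0.543 and 0.172). No label links a replicate number to a batch.

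The members and gene lists were chosen with earlier results of these data known. Named were all members, RRM2B, the genes nearest to RRM2, TK1, TYMS and SAMHD1, and from every list the 3 or fewer called genes that had the lowest p in combination against control, or else the most abundant gene. A few genes so chosen are not reported here. Alternatives were other pseudocounts, filters, scalings, tests and library sets.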

Additional observations from a re-analysis of the deposited data

How the results depend on the processing

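Of the 9 members, the number called in radiation against control was 4 (3 to 6 over 24 alternatives, 3 to 5 on leaving out 1 library) and in the combination against control 2 (2 to 3, and 2 to 3). For nab-paclitaxel against control it was 1, but 0 without a filter, with quantile normalization, size factors over tested genes, the replicate block, no trend, voom on recovered fragments, or only the groups compared, and 3 without control 2, nab-paclitaxel 1 and combination 2 (0 to 1 on leaving out 1 library). For the combination against radiation it was 1, but 0 with the replicate block and 3 without those 3 libraries (0 to 1). For the combination against nab-paclitaxel it was 4, but 2 with only the groups compared (2 to 4), and for radiation against nab-paclitaxel 7 (4 to 7 on leaving out 1 library, 5 to 7 otherwise). The interaction had 0 throughout.

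With the replicate block RRM1 lost its calls in nab-paclitaxel against control (adjusted p = 0.0862), the combination against radiation (0.0503) and the combination against nab-paclitaxel (0.0601), and DTYMK gained one in the combination against control (0.0258). The other calls of members were unchanged by it. Of 1496 alternative values of members 35 had the opposite sign, 0 of them past the threshold and none over 0.14 in size. TYMS could not be fitted at a filter of 5 FPKM.

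Scaling moved the split of all called genes. The share higher was 61.3% for nab-paclitaxel against control and 48.3% after quantile normalization, 62% and 50.9% (size factors over tested genes) for the combination against radiation, 31% and 41.8% (quantile) for the combination against nab-paclitaxel, and 34.6% and 49.3% (size factors) for radiation against nab-paclitaxel. Depth limits TYMS most, at 116 to 296 fragments per library.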

Other observations

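TYMSOS, a noncoding gene on the strand opposite TYMS, was low and highest in the combination. It was chosen for mention after its values were seen. TYMSOS measured 0.386, 0.534 and 0.475 FPKM (control), 1.03, 0.802 and 0.535 (radiation alone), 0.586, 0.761 and 0.911 (drug alone) and 2.09, 2.39 and 1.93 (both treatments), from 6 to 37 fragments per library. The combination libraries lay above all others. TYMSOS reached the mean of 1 FPKM needed for testing only through the combination libraries, so its differences are given as a description with no test: 1.10 on the log2(FPKM + 1) scale against control, 0.82 against radiation and 0.84 against nab-paclitaxel. At so low a level the 1 FPKM added before the log shrinks these values. The mean FPKM in the combination was 4.59 times that of control, 2.70 times that of radiation alone and 2.84 times that of nab-paclitaxel alone. TYMS, on the other strand, gave -0.08 ± 0.18 in the combination against control (adjusted p = 0.781), and reads of these genes cannot be told apart without strand.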
